A study of Rattus norvegicus with 3 samples.

Results

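The regions described here are 23102 array probes, of 389347 (5.93%), at which less methylated DNA was captured from the PM rat than from the non-PM rat on each of 3 arrays. They were chosen by the deposited PM/non-PM ratio, which had to be 0.5 or lower on every array, and by the scanner flag for a non-PM signal well above background, which had to be set on every array. Probes with a spot marked as an outlier were left out. The ratios and the non-PM detection of these probes are therefore given as a description, and p-values of their ratios are no evidence of a difference.

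DNA came from tendons of male Sprague-Dawley rats, which in both groups had been 8 weeks old when they underwent Achilles tenotomy. The sample labels add a repair, which the study's methods do not describe. The PM group inhaled PM2.5, fine particulate matter, in sessions held 3 times per week over 6 weeks, whereas the non-PM group was not exposed. Each array compared DNA of 1 PM rat, labeled with Cy5, with DNA of 1 non-PM rat, labeled with Cy3, so that each group had 3 rats. Cy5 always marked the PM rat, and effects of the dye and of PM cannot be told apart.

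Methylation of cytosine in CpG dinucleotides is a stable chemical mark on DNA that is copied when cells divide, and dense methylation at promoters is commonly associated with gene silencing. In a capture assay, sonicated DNA is incubated with a methyl-CpG-binding protein fragment, here MBD2bt, and the retained fragments are amplified and hybridized. The signal of a probe thus reflects how much methylated DNA around it was retained, which depends on CpG density as well as on methylation and is not a methylation percentage. In tissue DNA, less methylation in every cell and fewer cells with the methylated state cannot be told apart. A ratio below 1 means less capture in the PM rat, and the 23102 probes that met the whole rule are called hypomethylated below.

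Array 3 was the single array of slide 2, whereas arrays 1 and 2 shared slide 1. Its non-PM channel stood apart from the other non-PM channels. Across all 389347 probes, the normalized log2 signal of the non-PM channel of array 3 had a Pearson's r of 0.880, 0.888 and 0.863 with the PM channels of arrays 1 to 3, but of 0.650 and 0.684 with the non-PM channels of arrays 1 and 2. Those 2 non-PM channels had r = 0.956 with each other. The PM channel of array 3 had r of 0.861 and 0.871 with the PM channels of arrays 1 and 2, which had r = 0.896 with each other. With the non-PM channels of arrays 1 and 2 it had r of 0.532 and 0.568. These correlations are across probes, which share the arrays and are not independent replicates. Among the 23102 probes alone, whose choice required a high non-PM signal, this channel had r of 0.683 and 0.706 with the non-PM channels of arrays 1 and 2, and of 0.557, 0.578 and 0.759 with the PM channels of arrays 1 to 3, the last being on its own array. The deposited names of the rats carry the same number in both channels of arrays 1 and 2 and different numbers on array 3. Whether the sample labels of array 3 are right was not tested, and a wrong label would change the meaning of every ratio of that array. The animals, the slide and the sample labels of array 3 cannot be told apart here. Values are therefore given for each array.

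Array 3 limited the number of hypomethylated probes. A ratio of 0.5 or lower was found at 119785 probes (30.8%) on array 1, 114737 (29.5%) on array 2 and 48165 (12.4%) on array 3. Arrays 1 and 2 shared 87110 such probes, of which 26431 (30.3%) were also at or below 0.5 on array 3. Requiring a non-PM signal well above background removed 3319 of these, and the outlier marks removed 10 more. On arrays 1 and 2 alone, 83027 probes met the whole rule, against 26321 without array 1 and 26719 without array 2.

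The median ratio of the 23102 probes was 0.191 on array 1, 0.190 on array 2 and 0.276 on array 3, as deposited. The PM signal behind these ratios was not well above background at 12280, 11476 and 17008 of the probes on arrays 1 to 3, so the depth of the loss is uncertain. With a normexp background correction the median log2 ratios were -0.92, -0.93 and -0.52, compared with -2.39, -2.40 and -1.86 as deposited. The quartiles of the ratios lay between 0.122 and 0.287 on array 1, between 0.121 and 0.284 on array 2 and between 0.177 and 0.369 on array 3. Over the 3 arrays, the mean log2 ratio had a median of -2.27 among these probes, and the SD between arrays had a median of 0.62.

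The deposited ratio was at least 4-fold below 1 on all 3 arrays at 5602 probes (24.2%), and at least 8-fold below it at 613 (2.65%). At 9316 probes (40.3%) the deposited ratios of the highest and the lowest array lay within 2-fold of each other, and at 3773 (16.3%) they lay over 4-fold apart. Among the 23102 probes, Pearson's r of the log2 ratios was 0.44 between arrays 1 and 2 and 0.16 between either of them and array 3. These are descriptions within a range of ratios that the choice of probes had narrowed. Over all probes the corresponding values were 0.83, 0.22 and 0.22.

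The choice of probes set the sign of the ratio, so the following counts carry no weight as evidence of a difference. With limma, 23101 of the 23102 probes were lower in the PM group at an unadjusted p of 0.05, as were 15.6% of all probes. After Benjamini-Hochberg adjustment 0 of them passed, as did 0.0% of all probes, and their adjusted p in limma had a median of 0.0821 and a highest value of 0.179. The adjusted count over all probes with less capture in the PM group was 2458 without array 1, 1632 without array 2 and 90646 without array 3. In both directions together these counts were 2488, 1672 and 181739. Among the probes with a detectable non-PM signal, the adjusted count with less capture was 19149, of 19697 in both directions. That filter keeps probes by the channel in which a loss is high, so it favors losses. With the slide as a term in limma (1 residual degree of freedom), the adjusted count over all probes depended on the coding. Weighting the slides equally gave 26173 probes with less capture, of 36107 in both directions. Weighting the arrays equally gave 72143 of 141470, a coding that was replaced after its counts had been seen. The p-values measure only the spread between these 3 arrays, in which the rats, the slide and the measurement cannot be told apart.

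The separate channels showed at which signals the loss occurred. All 3 non-PM signals lay above all 3 PM signals at 18324 of the 23102 probes (79.3%), against 13.3% of all probes. The overlap at the other 4778 probes came mostly with the non-PM rat of array 3, whose signal was above all PM signals at 18358 probes and below both other non-PM signals at 84.0%. Relative to the mean of the PM channels, the median normalized log2 signal was 2.77 and 2.70 higher in the non-PM channels of arrays 1 and 2, and 1.48 higher in that of array 3. The PM channel of array 3 lay 0.56 below the same mean (-0.56), while those of arrays 1 and 2 lay 0.33 and 0.26 above it. On array 3 both signals were therefore dimmer at these probes than on the other arrays.

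The background-subtracted intensities give the strength of these signals. In the non-PM channels the median over the 23102 probes was 116, 76.9 and 29.9 on arrays 1 to 3, whereas all probes had medians of 33.2, 22.8 and 20.2. In the PM channels it was 16.1, 16.7 and 8.06, against 19.7, 21.9 and 25.4 for all probes. The non-PM signals on array 3 were thus a median of 3.04 times the lowest intensity that the software marked as well above background there, compared with 11.8 times on array 1 and 7.49 times on array 2. The scanner software's own error of a log2 ratio, which combines both channels, had a median of 0.36, 0.37 and 0.45 at these probes on arrays 1 to 3, and of 0.37, 0.37 and 0.33 over all probes.

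The PM signal was often too dim to measure. It was well above background at 10822 of the 23102 probes (46.8%) on array 1, 11626 (50.3%) on array 2 and 6094 (26.4%) on array 3. Over all probes the shares were 53.5%, 58.5% and 60.3%. Of the 23102 probes, 4545 (19.7%) had such a PM signal on all 3 arrays, 4867 on 2 arrays, 5173 on 1 array and 8517 (36.9%) on no array. Among all probes with a detectable non-PM signal, the shares were 67.6% for all 3 arrays and 8.53% for no array. The choice of low ratios favors a dim PM signal. Of the 4867 probes detected on 2 arrays, 3785 were detected on arrays 1 and 2 but not on array 3. At 80.3% of the 23102 probes, therefore, the size of the ratio was not measured on at least 1 array.

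For the 8517 probes with no measurable PM signal, the size of the loss was expressed as a bound. The mean normalized non-PM signal was set against the mean of the PM signals, each raised to the lowest signal among well-above-background probes of its array where it was below it. Such folds are open to dye bias, since the dyes were not swapped. A PM signal not well above background but above this floor kept its own value, so the bounds are approximate. They had a median of at least 2.33-fold, compared with 4.88-fold for the same channels without the floor. At 5451 probes (64.0%) the bound was over 2-fold, and the largest was at least 18.7-fold. The same channels chose the probes, so the bounds are no evidence of a loss. They were not computed with the normexp correction, under which the ratios were less low. At 203 probes the bound did not exceed 1 and no fold is given.

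The 4545 probes measured in both channels of every array had deeper losses on slide 1 and shallower losses on slide 2. Their median ratio was 0.165 on array 1, 0.155 on array 2 and 0.350 on array 3. Array 3 gave the highest of the 3 ratios at 3590 of them (79.0%), against 564 for array 1 and 391 for array 2, and the lowest at 389 (8.56%). Among the 4545 probes, Pearson's r was 0.81 between arrays 1 and 2, and 0.24 and 0.27 between these arrays and array 3. A PM signal must remain high for a probe to enter this subset, which limits the losses it can hold at dim probes.

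Among the 4545, CUST_RP21117028 came first by the lowest value of its highest ratio. Its deposited ratios, after LOWESS, were 0.0323, 0.0243 and 0.0264 on arrays 1 to 3. Their mean log2 ratio was -5.19 ± 0.21 (SD, n = 3 arrays), or 36.4-fold lower as deposited. The background-subtracted intensities, before dye normalization and LOWESS, lay less far apart. They were 767, 601 and 601 in the non-PM channels, and 60.8, 44.3 and 22.6 in the PM channels. The part of the normalization in the fold was not tested. The signals of the rats did not overlap between the groups, as at 79.3% of the 23102 probes and 13.3% of all probes.

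CUST_RP21021086 followed with ratios of 0.0423, 0.0345 and 0.0270, on average 29.4-fold lower as deposited. Its background-subtracted intensities also lay less far apart, at 1429, 1055 and 1354 in the non-PM and 243, 182 and 56.9 in the PM channels. CUST_RP21182908 had ratios of 0.0329, 0.0291 and 0.0464. Both were as low on array 3 as on the other arrays, to within 2-fold. However, the PM intensity of CUST_RP21182908 on array 3, 17.25, was close to the lowest marked as well above background there, 17.22. The next places were taken by consecutively numbered probes, CUST_RP21337930 with ratios of 0.0300, 0.0319 and 0.0478 and CUST_RP21337931 with ratios of 0.0283, 0.0285 and 0.0482. On the log2 scale this pair averaged -4.81 ± 0.36 and -4.88 ± 0.44 (SD, n = 3 arrays). CUST_RP21380161, with ratios of 0.0370, 0.0340 and 0.0595, was the sixth. All 6 had at least 1 neighbor in the probe numbering that also met the rule.

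The arrays agreed within a narrow range at some probes and not at others. CUST_RP21116370 had ratios of 0.181, 0.183 and 0.183, CUST_RP21271493 of 0.267, 0.265 and 0.268, and CUST_RP21291890 of 0.437, 0.443 and 0.443. These 3 had the smallest range of log2 ratios among the 4545 probes. At the other end, CUST_RP21290365 had ratios of 0.0285 and 0.0130 on arrays 1 and 2 and of 0.373 on array 3. CUST_RP21271185 had 0.0215, 0.0352 and 0.486, and CUST_RP21312916 had 0.0214, 0.0185 and 0.417. At all 3 of the latter, array 3 gave the shallow value. The non-PM intensity of CUST_RP21290365 was 1395 and 1069 on arrays 1 and 2 and 129 on array 3, whereas its PM intensity was 158, 55.8 and 69.0, so that the non-PM channels differed more than the PM channels.

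The scanner files name the probes by running numbers, from 21000001 to 21389347, and pair none with a gene or a position, so genes are not analysed here. Whether consecutive numbers are neighbors in the genome is not given in the sources used here. By number, 12309 of the 23102 probes (53.3%) stood next to another of them (27.8% when both channels had to be well above background on every array), and 16569 (71.7%) had another within 3 numbers. They formed 15575 runs, of which 10793 were single probes, 3078 were pairs, and 1704 held 3 or more probes. The runs of 3 or more contained 6153 probes (26.6%).

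The deposited ratios were lower in longer runs. The same ratios defined the runs, and ratios of adjacent probes were correlated over all probes. The choice can itself give such an order, which is therefore a description and carries no weight as evidence. The median of the mean log2 ratio was -2.14 at probes with no neighbor meeting the rule, -2.31 in pairs, -2.45 in runs of 3 or 4 and -2.54 in runs of 5 or more. The same order was found in the 4545 probes with a measured PM signal, at -2.09, -2.34, -2.57 and -2.69 for 1881, 1295, 1048 and 321 probes. Over the 23102 probes it was also found on each array, from -2.24 to -2.61 on array 1, from -2.27 to -2.67 on array 2 and from -1.72 to -2.19 on array 3. The median non-PM intensity also differed, from 107 at single probes to 128 in runs of 5 or more on array 1, from 70.5 to 84.0 on array 2 and from 25.2 to 45.2 on array 3, and its part in the order was not tested. Within runs, adjacent probes had r of 0.316, 0.277 and 0.238 between their log2 ratios on arrays 1 to 3 (7527 pairs, which overlap in longer runs). Over all 389346 adjacent pairs the values were 0.608, 0.604 and 0.323.

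Runs of 9 probes were the longest, and there were 5 of them. Since most of their probes had a dim PM signal on at least 1 array, the runs are not ranked by the depth of the loss. The first went from CUST_RP21024792 to CUST_RP21024800. Its ratios lay between 0.0516 and 0.194 on array 1, between 0.0567 and 0.439 on array 2 and between 0.0394 and 0.416 on array 3. At all 9 probes the non-PM signals lay above the PM signals, as at 79.3% of the 23102 probes and 13.3% of all probes. The rule favors this, so the count is no evidence of a difference. The PM signal was well above background on every array at only 2 of the 9. With PM signals raised to the floor, the bounds in this run went from at least 1.38-fold to at least 14.1-fold. The probe just before it had ratios of 0.183, 0.109 and 0.542, so that it missed the rule on array 3, and the probe just after it had 4.17, 0.478 and 0.815.

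The run from CUST_RP21026873 to CUST_RP21026881 had median ratios of 0.126 and 0.129 on arrays 1 and 2 and ratios between 0.134 and 0.498 on array 3, with 1 of the 9 probes measured in both channels of every array. Its flanking probes had ratios of 0.150 and 0.178 on arrays 1 and 2 before it and of 0.340 and 0.228 after it, and lay just above 0.5 on array 3, at 0.511 and 0.503. The run from CUST_RP21228854 to CUST_RP21228862 had median ratios of 0.200, 0.262 and 0.263, with 2 probes measured on every array. That from CUST_RP21161290 to CUST_RP21161298 had 0.158, 0.219 and 0.275, with 1 such probe. The probe before it had ratios of 0.108, 0.347 and 0.639, and the probe after it 0.932, 0.977 and 0.969. In the run from CUST_RP21081067 to CUST_RP21081075 the PM signal was well above background at 1, 0 and 3 of the 9 probes on arrays 1 to 3, so that its deposited median ratios of 0.242, 0.210 and 0.161 do not order the arrays.

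Of the 12 runs of 8 probes, the tie rule (the lower mean of the deposited log2 ratios) named the run from CUST_RP21228751 to CUST_RP21228758. This is no rank by the depth of the loss, since 4 of its probes had a dim PM signal on at least 1 array, and the other 4 were measured in both channels of every array. Its median ratios were 0.0829, 0.0912 and 0.226. CUST_RP21228757, within it, had ratios of 0.0187, 0.0301 and 0.106, with non-PM intensities of 923, 942 and 1301 and PM intensities of 39.7, 145 and 218. In both groups its signal was well above background on every array.

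Hypomethylated probes were also frequent beyond the direct neighbor. Of the positions 1 number away from these probes, 32.6% met the rule as well. The share was 22.4% at a distance of 2, 18.1% at 3, 15.1% at 5, 12.2% at 10, 10.8% at 100 and 7.36% at 1000, compared with 5.93% over the whole array. Most of the difference lay within the first 10 numbers.

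The direct neighbors that did not meet the rule were shifted in the same direction on all 3 arrays. There were 28728 of them, with median log2 ratios of -1.33, -1.31 and -0.24 on arrays 1 to 3, whereas all probes outside the rule had 0.10, 0.19 and 0.09. Their ratio was above 0.5 at 24388 (84.9%) on array 3, against 11454 (39.9%) on array 1 and 12024 (41.9%) on array 2. Since missing the rule chose them, the sizes of the shifts are not compared between arrays. Of these neighbors, 12155 (42.3%) had a ratio above 0.5 on array 3 but not on arrays 1 and 2, and 1000 (3.48%) had ratios of 0.5 or lower on every array and missed another part of the rule. Ratios above 1 on all 3 arrays were found at 1388 (4.83%).

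By contrast, the spots were not close to each other on the slide. Consecutive numbers lay on neighboring spots in 0.00283% of the cases. Among the spots directly next to a hypomethylated probe on the slide, 6.06% met the rule, compared with 5.93% of all spots. From the first to the last eighth of the rows the share went from 5.49% to 6.76%.

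Along the probe numbers the share varied widely. In 38 full blocks of 10000 consecutive numbers, a median of 5.51% of the probes met the rule. Blocks over 10% began at 21020001 (12.4%), 21080001 (16.1%) and 21180001 (12.6%). In the block beginning at 21080001, 28.0% of the probes with a detectable non-PM signal on all arrays met the rule, against 9.98% over the whole array, and the median log2 ratio of all its probes was -0.88, -0.87 and -0.14 on arrays 1 to 3. The lowest share, 0.78%, was found in the block beginning at 21360001. There 13.9% of the probes had a detectable non-PM signal on all arrays, against 59.5% over the whole array, and 5.63% of these met the rule. In the last, incomplete block, beginning at 21380001, 58.6% were detectable and 2.83% of these met the rule, or 1.66% of all its probes.

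The mirrored rule, with a ratio of 2 or higher on every array and a PM signal well above background, was met by 2701 probes (0.694%). Their median log2 ratios were 2.46, 2.19 and 1.20 on arrays 1 to 3, and 431 of them (16.0%) stood next to another. The detection parts of the 2 rules were not alike. The lowest intensity marked as well above background was 16.5 to 17.5 in the PM channels and 9.86 to 10.3 in the non-PM channels. The difference between the directions was not tested, since the ratios chose both sets. Only 29 of the 23102 hypomethylated probes (0.126%) stood next to such a probe.

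The limit of 0.5 cut through a continuous range of ratios. The 4 probes just inside it were CUST_RP21327374, CUST_RP21049566, CUST_RP21169607 and CUST_RP21364845, whose highest ratios were 0.499983, 0.499965, 0.499962 and 0.499941. The 4 just outside it, which met all other parts of the rule, were CUST_RP21320143, CUST_RP21278686, CUST_RP21302973 and CUST_RP21316226, with highest ratios of 0.500003, 0.500006, 0.500009 and 0.500017. Array 3 gave the highest ratio in all 4 outside and in 2 of the 4 inside. Outside the limit, the PM signal was dim at CUST_RP21320143 and CUST_RP21302973 on array 3 and at CUST_RP21278686 on array 2. At CUST_RP21316226 it was dim on every array. Inside the limit, it was dim at CUST_RP21327374 on arrays 1 and 3 and at CUST_RP21364845 on arrays 2 and 3. These probes therefore have no rank by the depth of the loss, and their order describes the deposited ratios only. On arrays 1 and 2, CUST_RP21320143, outside the limit, had ratios of 0.191 and 0.189, close to the medians of the probes inside it.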

How the data were processed

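Methyl-DNA capture was measured on 3 custom arrays with 2 channels each. The authors deposited spot intensities from Agilent Feature Extraction 11.5.1.1, background-subtracted and, as processed signals, linearly dye-normalized. The deposited log10 ratios (Cy5 over Cy3) were made from the processed signals, and the deposited error score of that ratio from the software's error model. The authors also deposited a linear PM/non-PM ratio per probe after LOWESS in GeneSpring, whose settings are not given in the sources used here and whose medians were 0.959, 1.02 and 1.02. Comparison with each array's log10 ratio settled its scale and direction. Deposited flags and spot positions were used as other values without a unit.

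The members, lists and alternatives were chosen with earlier results of these data known. Control spots were left out. For limma (3.58.1, R 4.3.3), the log2 ratio of the processed signals was normalized by loess (span 0.3) within each array, outlier spots were set to missing, and lmFit and eBayes were run with an intercept alone over all 389347 probes. Single channels were scaled with Aquantile between arrays. The procedure was tested on simulated data. Counts were made with Python 3.11.15, numpy 2.4.6 and pandas 2.3.3. The number of arrays limits the precision. Slides were read from the file headers.

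Named probes were the 6 longest runs (ties by the lower mean log2 ratio), and, among probes with both channels well above background on every array, the 6 with the lowest highest ratio and the 3 with the smallest and the 3 with the largest range of log2 ratios. The 4 probes on either side of the limit were added. A probe with a dim PM channel on any array has no rank. The planned gene lists were not run, since no probe is paired with a gene. Alternatives changed the limit, the detection filter, the outlier marks, the normalization, the background correction (normexp, offset 50), the slide term, the test, the neighbor distance and the arrays.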

Additional observations from a re-analysis of the deposited data

How the results depend on the processing

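The number of probes meeting the rule was 23102. It was 5602 with a ratio limit of 0.25, 4545 with both channels well above background, 2853 with a normexp background correction followed by loess, and 26321 to 83027 on 2 arrays (highest without array 3). It stayed within 1.5 times under the other settings, which included leaving out spots with an outlier background (20503), a setting chosen after seeing the data. With the normexp correction, which adds an offset of 50 to signals as dim as these, the median log2 ratios of these probes were -0.92, -0.93 and -0.52 on arrays 1 to 3. The share of these probes next to another of them was 53.3%, and 27.8% with both channels well above background, where fewer probes could be neighbors.

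In limma, 60596 probes were lower in the PM group at an unadjusted p of 0.05. The number was 31671 by the methods' t-test in a one-sample form and 26973 to 110830 on 2 arrays. After adjustment it was 0, but 19149 (19697 in both directions) among probes with a non-PM signal well above background. That filter keeps probes by the channel in which a loss is high, so it favors losses. The adjusted number was between 1632 and 90646 with 1 array left out, and 26173 with the slide as a term, which leaves 1 residual degree of freedom. The slide term was first coded so that the 3 arrays weighed equally, which gave 72143 after adjustment and 98390 before it. It was recoded to weigh the 2 slides equally after those counts had been seen, so neither coding was fixed in advance. Probes with all non-PM above all PM signals numbered 51698, and 74649 to 150383 on 2 arrays. The cause of these changes was not tested, apart from fewer probes or arrays where these were left out. The dim signals limit the depth of a loss that can be measured.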

Other observations

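The following probes and stretches were chosen after their values were seen. In 3893 windows of 100 consecutive numbers, the median was 4 probes meeting the rule, and 368 windows (9.45%) held none. The highest number was 50, in the window from 21228801 to 21228900, which contains the run that starts at CUST_RP21228854 and begins shortly after the run that starts at CUST_RP21228751. At least 20 such probes were found in 189 windows, which together held 5509 of the 23102 probes (23.8%).

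The deposited ratio had a lowest value of 0.01, reached by CUST_RP21271733 on array 1 and by CUST_RP21033168 and CUST_RP21319275 on array 2, each time with a PM signal not well above background on that array. CUST_RP21238797, with ratios of 0.486, 0.493 and 0.483, was the only probe meeting the rule that limma did not call at an unadjusted p of 0.05. CUST_RP21165594 was saturated in both channels of array 3, at intensities of 65502 and 65470, but had non-PM intensities of 48.0 and 38.2 on arrays 1 and 2. Its ratio of 0.472 on array 3 therefore has no defined size.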
